A study of Mus musculus with 6 samples.

Results

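The costimulatory genes of the tumour necrosis factor (TNF) receptor family described here are 8 receptors and 2 ligands, 10 genes in all. They were found as the probes whose gene name on the array equals Tnfrsf18, Tnfrsf4, Tnfrsf9, Tnfrsf1b, Tnfrsf1a, Tnfrsf25, Cd27, Fas, Cd40lg or Tnfsf11. This gave 16 of the 41174 probes on the array, by gene name alone. All 16 passed the filter on dim probes, which kept a probe if 3 or more of the 6 arrays read it well above background and left 22281 probes for 14357 genes. Of the 16, 14 were well above background on all 6 arrays.

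The study asked what the loss of miR-31 in CD4+ T cells does to induced regulatory T (iTreg) cells. Its groups were 3 mice of the genotype miR-31 fl/fl CD4Cre (cKO) and 3 miR-31 fl/fl mice without Cre (control). All 6 mice were on a C57BL/6 background and 6 weeks old, or age-matched, and each gave 1 culture and 1 one-colour Agilent array. Naive CD4+CD25-Foxp3gfp-CD62Lhi T cells sorted from the spleen were grown for 4 days with 5 μg per ml plate-bound anti-CD3, 2 μg per ml soluble anti-CD28, 5 ng per ml TGF-β1 and 40 ng per ml IL-2 (the methods of the study give another IL-2 dose for iTreg cultures). Both groups therefore carry the floxed allele, which the methods describe as backcrossed to this background, and they differ in the transgene as well as in the deletion: a control with CD4Cre and without floxed alleles was not analysed here. CD4Cre acts in all T cells that have passed through a CD4-positive stage, not in regulatory T cells alone.

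TNF family receptors sit on the cell surface as partners of trimeric ligands, and those without a death domain bind TRAF adaptor proteins and switch on NF-κB and survival signals. On T cells they act as a late second signal: several are low on resting cells and increase after the T cell receptor is triggered, and several are abundant on regulatory T cells. Fas, TNF receptor 1 and death receptor 3 carry death domains, through which they can also signal towards caspases. Messenger RNA is read here, so a difference in the amount of RNA per cell and a difference in the share of cells that express a gene cannot be told apart.

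The microRNA deleted in the cKO mice lies on the same chromosome as 5 of the 10 genes and 9 of the 16 probes. The share of all probes on that chromosome was not counted. The nearest of these genes, Tnfrsf1b, is far away, with its start window at chr4:145246821-145247120. The mature strand of miR-31 (RefSeq, GRCm38.p6, chr4:88910614-88910635, minus strand) is shown because its seed, bases 2 to 8, in capitals, is the stretch that pairs with target RNAs.
miR-31-5p: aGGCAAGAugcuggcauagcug
The match to this seed, TCTTGCC, searched on the sense strand that the probes give, was in 0 of the 16 member probes and in 133 of all 41174 probes (0.323%). A probe is a 60-base window, so this says only that these letters are not in these windows.

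Values below are log2 processed signal relative to the 75th percentile of the same array, so that 0 is the 75th percentile and a difference of 1 is a doubling. Levels of different probes depend on the probe and are not set against each other. The 3 cKO values and the 3 control values are given in the order of the replicate numbers. Positions are those of the array's annotation on mm9. Differences are cKO minus control, with the standard error (SE) and the Benjamini-Hochberg adjusted p of limma over 22281 probes. A 2-sided exact permutation test of 3 arrays against 3 cannot give a p below 0.1.

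No member probe passed the adjusted threshold of 0.05 in limma (0 of 16, against 0.13% of all kept probes), and the plain 2-sample test that the methods name also called 0 after adjustment. Before adjustment, limma gave 2 of the 16 probes a p under 0.05, both higher in cKO (12.5%, against 11.7% of all kept probes higher), and 0 lower in cKO (against 11.3%). That test gave 1. In 3 of the 16 all cKO arrays exceeded all control arrays (18.75%, against 16.2% of all kept probes), and in 0 all cKO arrays were the lower (against 20.3%). The shares of higher calls thus lay near the background. The differences leaned upwards, with 13 of 16 above 0 (81.25%, against 45.6% of all kept probes). Their median was 0.21, beside -0.04 over all kept probes, and the median size was 0.32, beside 0.24. With the slide as a term (described below), 12 were above 0 and the median was 0.09, beside -0.0030 over all kept probes. Among the 14 member probes well above background on all 6 arrays, 11 were above 0. Their median was again 0.21, beside -0.04 over all probes so filtered. The share of all probes above 0 was not counted with the slide as a term or with this filter. Several of the 16 probes read the same gene, so they are not 16 separate genes. The members were also chosen with earlier results of these data known, so the upward lean cannot be read as a trait of the family.

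**Figure D1:**
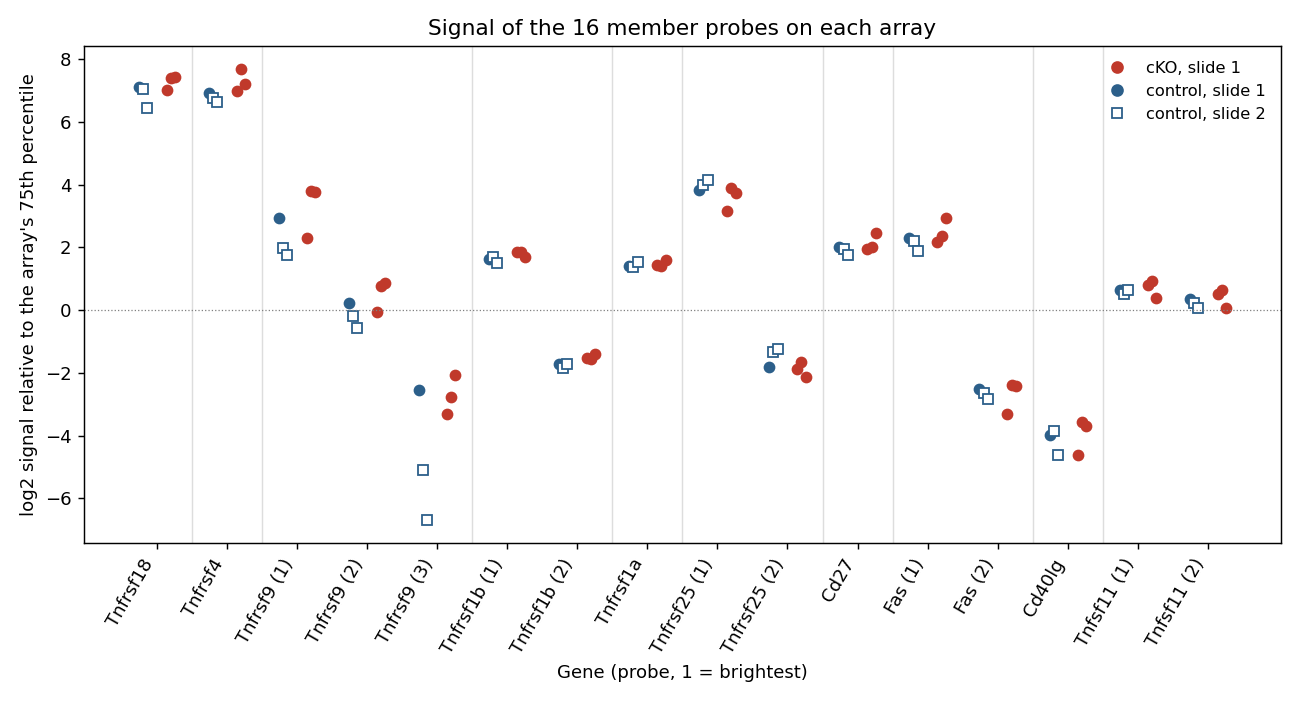
Signal of each of the 16 member probes (x axis, gene and probe number, with 1 the brightest) on each of the 6 arrays, as log2 relative to the 75th percentile of the array (y axis). Red points are cKO, blue points control, filled points slide 1 and open squares slide 2. The control arrays on slide 2 lie lowest at the Tnfrsf9 probes, and the groups are separate at Tnfrsf4 and at both Tnfrsf1b probes.

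The arrays lay on 2 slides, and this bears on every value below. Slide 1 held the 3 cKO arrays and control 1, and slide 2 held control 2 and control 3. With the slide as a term in the fit, the genotype difference is the cKO mean minus control 1 alone, and 14 of the 16 differences came nearer to 0. Control 3 gave the lowest value of all 6 arrays at 9 of the 16 probes, and cKO 1 gave the lowest of its group at 10. These counts were made on the member probes alone, so they do not set the members apart from other probes. With the slide as a term the median difference over all kept probes also came nearer to 0, from -0.04 to -0.0030. Signals at the 75th percentile ranged from 987 to 1148, 49.3% to 57.7% of the spots on an array were well above background, and 0 were saturated.

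The T cell identity of the cultures was checked with marker genes. All 9 T and regulatory T cell markers were well above background on all 6 arrays, with a summed level of 252 to 299 in cKO and 238 to 245 in control, in units of the 75th percentile. Of these, 4 were higher and 2 lower in cKO at an unadjusted p under 0.05 (1 probe per gene, against 12.2% higher and 11.3% lower among all genes), and 0 passed adjustment in limma. Foxp3, the lineage factor of regulatory T cells, read 3.23, 3.19 and 2.53 in cKO and 3.48, 3.48 and 3.81 in control, a difference of -0.61 (SE 0.22, adjusted p = 0.191 in limma) with all cKO arrays below all control arrays, and of -0.38 without cKO 3. Ctla4, an inhibitory receptor abundant on the same cells, lay the other way, at 0.63, 1.02 and 1.23 in cKO and 0.31, 0.17 and -0.42 in control, a difference of 0.94 (SE 0.24, adjusted p = 0.137 in limma) with separate groups. Of the other regulatory T cell markers, Il2ra differed by -0.55 and Ikzf2 by 0.51, both with overlap. Over all 9 markers, which also hold Cd3e, Cd3d, Cd3g, Cd4 and Cd5, 6 differences were above 0 and 3 below. Their median was 0.39, and 45.7% of all genes lay above 0. By flow cytometry, the study reports that naive T cells of cKO mice gave rise to more iTreg cells in culture. That is a share of cells, while Foxp3 is read here as RNA, and how the measures relate was not tested. The summed level of 5 epithelial markers was 1.38 to 2.07 in cKO and 0.874 to 0.956 in control, led by Cdh1 (difference 1.02, adjusted p = 0.138 in limma) and Epcam (0.62, adjusted p = 0.155 in limma). That of 4 erythroid markers was 0.544 to 1.16 in cKO and 0.22 to 0.426 in control. In limma, 2 of the 3 epithelial markers kept were higher in cKO at an unadjusted p under 0.05 (against 12.2% higher among all genes). The 1 erythroid marker kept was higher too, with a difference of 2.10. Of these markers, 0 passed adjustment. B cell markers summed to 0.571 to 1.33 in cKO and 0.396 to 0.654 in control, with 1 of 5 kept. Myeloid and dendritic markers summed to 0.199 to 0.255 and 0.187 to 0.397, with 1 of 8 on the array kept. CD8 T and NK cell markers summed to 4.12 to 4.63 and 4.64 to 5.84. The part of these cells in the members' values was not tested.

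Among the receptors that bind TRAF proteins and have no death domain, the larger differences were at Tnfrsf9, Tnfrsf4 and Tnfrsf18. Tnfrsf9 (4-1BB, CD137) is induced by T cell activation and binds the ligand Tnfsf9. Its brightest probe (NM_011612, chr4:150319106-150319165) read 2.29, 3.81 and 3.78 in cKO and 2.95, 1.99 and 1.76 in control. The groups overlapped, since cKO 1 lay below control 1, while cKO 2 and cKO 3 lay above every control array. The mean was 3.29 ± 0.87 (SD, n = 3) in cKO and 2.23 ± 0.63 (SD, n = 3) in control. The difference was 1.06 (SE 0.51, 95% interval -0.17 to 2.29), a fold of 2.08, with an adjusted p of 0.258 in limma and an exact permutation p of 0.2. With the slide as a term it was 0.34 (adjusted p = 0.866 in limma).

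A second Tnfrsf9 probe, 446 bases further on (chr4:150319552-150319611), gave nearly the same order of arrays. It read -0.07, 0.78 and 0.88 in cKO and 0.24, -0.20 and -0.57 in control. Again cKO 1 lay below control 1, and the other two cKO arrays were highest. The difference was 0.71 (SE 0.32, adjusted p = 0.240 in limma), and 0.29 with the slide as a term. Both probes read the same 6 RNA samples, so they are not independent of each other.

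The third Tnfrsf9 probe (annotated to the transcript AK170670, chr4:150301838-150301897) lies 17268 bases upstream of the others. It was well above background on 3 cKO arrays but on only 1 control array. With its cKO arrays alone it met the filter on dim probes, and its low control values lie near background. It read -3.32, -2.76 and -2.06 in cKO and -2.56, -5.08 and -6.70 in control. The control arrays of slide 2 were the lowest, and control 1 lay among the cKO arrays. The difference of 2.07 (SE 1.02, 95% interval -0.40 to 4.53, adjusted p = 0.267 in limma) was the largest of the 16 and had the widest interval. It was 1.11 without control 3, 3.18 without control 1 and -0.15 with the slide as a term, and under normexp with quantiles it was 0.64, below that of the brightest probe (1.16).

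RefSeq places 2 start sites at Tnfrsf9, and this dim probe reads into the window before the second of them. The 250 bases before that start (GRCm38.p6, chr4:150927749-150927998, plus strand) are shown because their first 40 bases are the last 40 bases of the probe. The capitals mark a match to the κB motif, to which NF-κB factors bind, at positions 208 to 218 of the window, ending 32 bases before the start.
Tnfrsf9 upstream window: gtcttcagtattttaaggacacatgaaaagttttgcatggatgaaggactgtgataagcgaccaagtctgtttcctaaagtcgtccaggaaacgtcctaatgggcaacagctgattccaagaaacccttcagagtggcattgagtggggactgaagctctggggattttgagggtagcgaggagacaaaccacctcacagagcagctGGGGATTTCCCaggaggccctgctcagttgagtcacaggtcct
Windows of 300 bases, 250 before and 50 after a start, were given for 9 of the 10 genes, 11 windows in all. The κB motif, on either strand, was in 2 of the 11, this one and 1 of the Tnfrsf25 windows, and in 2779 of 32851 windows of all genes (8.46%). Such a match is a description of the sequence and was not tested as a binding site.

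Tnfrsf4 (OX40, CD134), whose ligand Tnfsf4 is carried mainly by antigen-presenting cells, is read by 1 probe (NM_011659, chr4:155390635-155390694). It read 6.97, 7.71 and 7.20 in cKO and 6.94, 6.77 and 6.62 in control. All cKO arrays exceeded all control arrays, but cKO 1 exceeded control 1 by less than the spread within either group. The mean was 7.29 ± 0.38 (SD, n = 3) in cKO and 6.78 ± 0.16 (SD, n = 3) in control. The difference was 0.52 (SE 0.21, 95% interval 0.01 to 1.02), with an unadjusted p of 0.0471 and an adjusted p of 0.214 in limma. It ranged from 0.31 without cKO 2 to 0.67 without cKO 1, and was 0.35 with the slide as a term.

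Tnfrsf18 (GITR, CD357), a receptor that regulatory T cells carry at high density, lies beside Tnfrsf4 on chromosome 4, with 2 RefSeq genes between them and 12214 bases between the starts of their probes. Its probe (NM_009400, chr4:155402849-155402908) read 7.02, 7.39 and 7.44 in cKO and 7.10, 7.06 and 6.46 in control. The groups overlapped, with cKO 1 below both control 1 and control 2 and with control 3 apart at the low end. The mean was 7.28 ± 0.23 (SD, n = 3) in cKO and 6.87 ± 0.36 (SD, n = 3) in control. The difference was 0.41 (SE 0.22, 95% interval -0.12 to 0.94, adjusted p = 0.292 in limma). It was 0.20 without control 3 and 0.18 with the slide as a term.

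**Figure D2:**
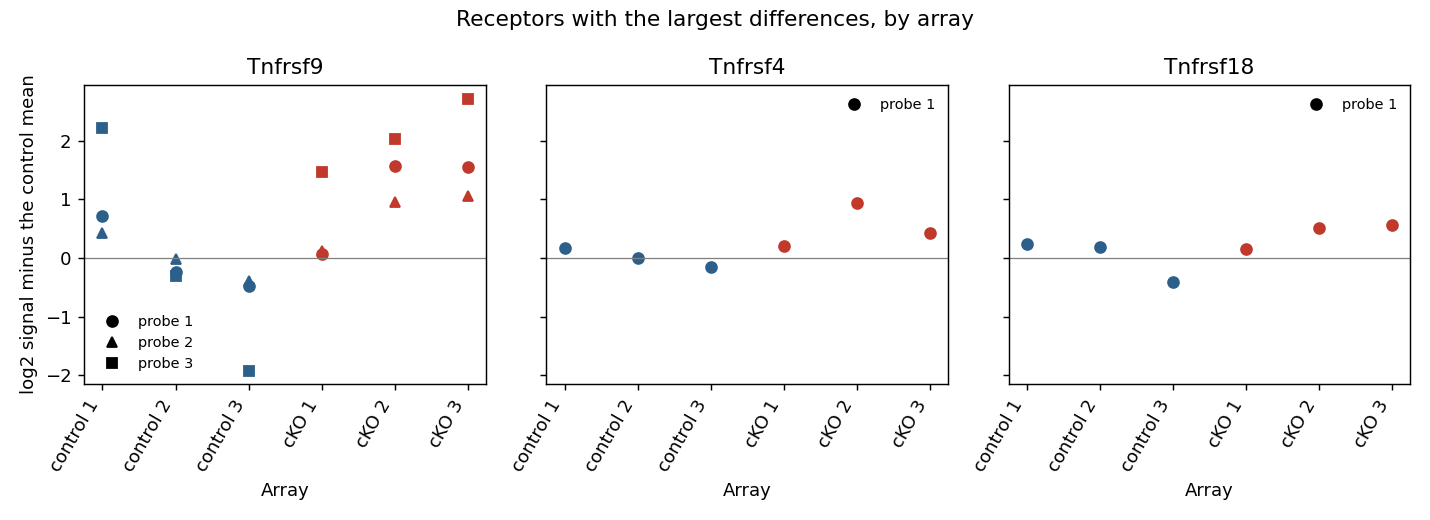
Signal of the Tnfrsf9, Tnfrsf4 and Tnfrsf18 probes on each array (x axis), as log2 signal minus the mean of the 3 control arrays (y axis). Blue symbols are control, red symbols cKO, and symbol shapes tell the probes of a gene apart. At the brightest probe, cKO 2 and cKO 3 lie above every control array in all 3 panels, and cKO 1 lies below control 1 for Tnfrsf9 and Tnfrsf18.

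The levels of these receptors across the 6 arrays were compared with those of 64 other genes of the family and its signalling. Most like Tnfrsf9 were Tnfsf4 (Pearson r = 0.92) and Fasl (r = 0.92). Most like Tnfrsf18 were Fasl (r = 0.98) and Tnfsf4 (r = 0.96), the ligands of Fas and OX40. Most like Tnfrsf4 were Nfkbia, the NF-κB inhibitor IκBα (r = 0.94), and the adaptor Traf4 (r = 0.93). Each is a description over 6 arrays that share genotype and slide, and no test was made.

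Tnfrsf1b (TNF receptor 2) is the TNF receptor without a death domain and is favoured by regulatory T cells. Of its 2 probes, the dimmer had the smallest p of all 16 probes, and its mm9 positions (NM_011610, chr4:144812866-144813439, minus strand) span 574 bases for a probe of 60, so that it crosses a splice junction. It is shown because it reads spliced RNA.
Tnfrsf1b junction probe: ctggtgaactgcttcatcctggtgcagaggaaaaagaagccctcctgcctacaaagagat
It read -1.51, -1.55 and -1.40 in cKO and -1.73, -1.85 and -1.72 in control. The groups were separate and each was narrow, with means of -1.49 ± 0.08 and -1.76 ± 0.07 (SD, n = 3 each). The difference was 0.28 (SE 0.10, 95% interval 0.03 to 0.52), with an unadjusted p of 0.032 and an adjusted p of 0.191 in limma, and it was 0.24 with the slide as a term.

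The brighter Tnfrsf1b probe (chr4:144804304-144804363) read 1.86, 1.85 and 1.71 in cKO and 1.62, 1.69 and 1.50 in control. Here too all cKO arrays exceeded all control arrays, by a small margin. The difference was 0.20 (SE 0.11, adjusted p = 0.290 in limma), and 0.19 with the slide as a term. The differences of both Tnfrsf1b probes were thus nearly as large with the slide as a term, whereas those of the 3 Tnfrsf9 probes came down to 0.34, 0.29 and -0.15. All of these estimates rest on control 1 alone, so they do not set Tnfrsf1b apart from Tnfrsf9. Under normexp with the 75th percentile, however, the brighter Tnfrsf1b probe differed by 0.03 and the dimmer by 0.44.

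Cd27, which binds Cd70 and is already present on naive T cells, read 1.94, 2.02 and 2.46 in cKO and 2.03, 1.97 and 1.75 in control (NM_001033126, chr6:125183076-125183135). The groups overlapped, and the mean of cKO was set by cKO 3. The difference was 0.22 (SE 0.17, 95% interval -0.19 to 0.64, adjusted p = 0.440 in limma), and 0.06 without cKO 3.

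The receptors with a death domain were Tnfrsf1a, Tnfrsf25 and Fas. Tnfrsf1a (TNF receptor 1), the widely expressed receptor of TNF, read 1.43, 1.40 and 1.60 in cKO and 1.40, 1.39 and 1.52 in control (NM_011609, chr6:125312376-125312435). The groups overlapped throughout a range of 0.21 on the log2 scale, the smallest of the 16 probes. The difference was 0.04 (SE 0.11, adjusted p = 0.843 in limma), and its 95% interval, -0.22 to 0.30, leaves room for a difference as large as those of Tnfrsf1b.

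Tnfrsf25 (death receptor 3) binds Tnfsf15 and costimulates T cells, regulatory T cells among them. It was the one member with every probe lower on average in cKO. Its brighter probe (NM_033042, chr4:151494156-151494215) read 3.17, 3.91 and 3.75 in cKO and 3.83, 3.98 and 4.15 in control. Only cKO 1 and cKO 3 lay below every control array. The difference was -0.38 (SE 0.21, 95% interval -0.90 to 0.14, adjusted p = 0.314 in limma), and it was -0.16 without cKO 1.

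The other Tnfrsf25 probe is shown as the second of the pair with lower means in cKO (chr4:151490755-151490814, plus strand).
Tnfrsf25 second probe: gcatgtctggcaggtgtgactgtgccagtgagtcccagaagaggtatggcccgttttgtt
It read -1.87, -1.66 and -2.13 in cKO and -1.80, -1.34 and -1.24 in control. The control array on slide 1 lay among the cKO arrays, and the control arrays on slide 2 were highest. The difference was -0.42 (SE 0.20, 95% interval -0.90 to 0.05, adjusted p = 0.248 in limma), and -0.08 with the slide as a term. Its direction turned under normexp with the 75th percentile, to 0.025.

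Fas (CD95), the receptor of Fasl through which activated T cells can be killed, has 2 probes that lie 18169 bases apart. The brighter (NM_007987, chr19:34401902-34401961) read 2.17, 2.36 and 2.93 in cKO and 2.30, 2.21 and 1.88 in control. The groups overlapped, with cKO 3 highest and control 3 lowest. The difference was 0.36 (SE 0.23, 95% interval -0.19 to 0.91, adjusted p = 0.361 in limma), and 0.14 without cKO 3. The dimmer (NM_001146708, chr19:34383733-34383792) read -3.32, -2.39 and -2.41 in cKO and -2.52, -2.66 and -2.82 in control. Here cKO 1 was lowest of all and the other two cKO arrays highest, which left a difference of -0.04 (SE 0.27, adjusted p = 0.935 in limma). It had no stable direction, at 0.27 without cKO 1 and -0.20 without cKO 2.

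**Figure D3:**
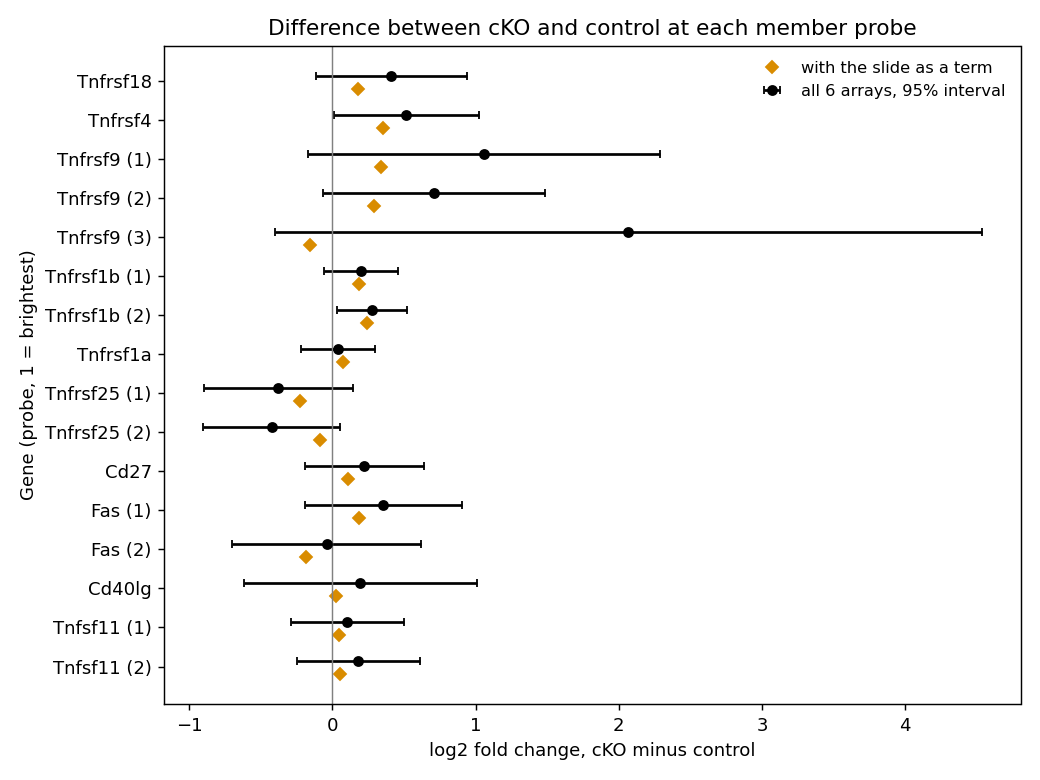
Difference between cKO and control at each member probe (y axis) as a log2 fold change (x axis). Black points with bars are the limma estimate from all 6 arrays with its 95% interval, and orange diamonds are the estimate with the slide as a term, which rests on control 1. The intervals exclude 0 at Tnfrsf4 and at the second Tnfrsf1b probe, before any adjustment, and the diamonds lie nearer 0 than the points at 14 of the 16 probes.

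The ligands among the members were Cd40lg and Tnfsf11. Cd40lg (CD154), by which helper T cells act on B cells and dendritic cells, was well above background on only 2 cKO arrays and 1 control array. Its probe (NM_011616, chrX:54477066-54477125) read -4.61, -3.58 and -3.71 in cKO and -3.99, -3.87 and -4.62 in control. The groups overlapped, with 1 low array in each. The difference was 0.19 (SE 0.33, 95% interval -0.62 to 1.01, adjusted p = 0.734 in limma).

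Tnfsf11 (RANKL), the ligand that drives osteoclast formation and dendritic cell survival, has 2 probes 221 bases apart on chromosome 14 (NM_011613). The brighter (chr14:78677959-78678018) read 0.79, 0.94 and 0.39 in cKO and 0.66, 0.52 and 0.63 in control. The dimmer (chr14:78678180-78678239) read 0.52, 0.63 and 0.06 in cKO and 0.35, 0.23 and 0.08 in control. At both, cKO 2 was highest and cKO 3 lowest, so that the control arrays fell within the range of cKO. The differences were 0.10 (SE 0.16, adjusted p = 0.704 in limma) and 0.18 (SE 0.18, adjusted p = 0.541 in limma).

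The partners of the members on the same arrays were then examined. Of 15 other TNF family ligands on the array, 10 were kept, of which 1 was higher and 0 lower in cKO at an unadjusted p under 0.05 (1 probe per gene, against 12.2% higher and 11.3% lower among all genes). Their median difference was 0.05, beside -0.04 for all genes. The one was Tnfsf9, the ligand of 4-1BB, which read -0.34, 0.21 and -0.56 in cKO and -0.92, -0.74 and -1.20 in control. All cKO arrays exceeded all control arrays. The difference was 0.72 (SE 0.23, 95% interval 0.16 to 1.29, unadjusted p = 0.0195 and adjusted p = 0.170 in limma), and it was 0.69 with the slide as a term. The receptor and the ligand thus both had higher means in cKO, but their arrays were ordered differently: cKO 3 was lowest of its group for Tnfsf9 and near the top for Tnfrsf9.

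The other ligands were chosen for mention after their values were seen. Tnfsf4, the ligand of OX40, differed by 0.54 (adjusted p = 0.242 in limma) with overlapping groups, by 0.34 without control 3 and by 0.19 with the slide as a term. Fasl differed by 0.42 (adjusted p = 0.349 in limma), also with overlap, by 0.19 without control 3 and by 0.08 with the slide as a term. Of the ligands of the TNF receptors, Tnf read 2.78, 2.75 and 2.32 in cKO and 2.88, 2.91 and 2.42 in control, a difference of -0.12 (adjusted p = 0.722 in limma). Lta, or lymphotoxin α, read 6.19, 6.01 and 5.05 in cKO and 6.30, 6.20 and 6.42 in control. Its cKO arrays lay below every control array and cKO 3 was farthest away, with a difference of -0.56 (adjusted p = 0.300 in limma), or -0.21 without cKO 3. The ligands of GITR, CD27 and death receptor 3 were near background: Tnfsf18 was well above it on 1 array, a control, and Cd70 and Tnfsf15 on 0.

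Of 20 other TNF receptor genes, 12 were kept, of which 2 were higher and 2 lower in cKO at an unadjusted p under 0.05 (against 12.2% and 11.3% of all genes), with a median difference of -0.12. The 2 lower ones are the partners of the member ligands. Cd40, the receptor of Cd40lg and a product chiefly of antigen-presenting cells, read 0.68, 0.68 and -0.02 in cKO and 1.15, 1.27 and 1.52 in control. The groups were separate, and the difference was -0.87 (SE 0.22, unadjusted p = 0.0078 and adjusted p = 0.137 in limma). The summed B cell, myeloid and dendritic markers are given above, and their part in this value was not tested. Tnfrsf11b, or osteoprotegerin, the soluble decoy receptor of RANKL, read -2.74, -3.84 and -3.85 in cKO and -2.20, -2.33 and -0.82 in control. The groups were again separate, with control 3 well above the rest, and the difference was -1.69 (SE 0.50, adjusted p = 0.156 in limma). With the slide as a term it was -1.27, and that of Cd40 was -0.71. Tnfrsf11a, the signalling receptor RANK, which was chosen for mention after its values were seen, overlapped between the groups, with a difference of -0.21 (adjusted p = 0.662 in limma). The 2 higher ones were Tnfrsf10b, the receptor of TRAIL (difference 0.38, adjusted p = 0.176 in limma), and Relt (0.24, adjusted p = 0.209 in limma).

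**Figure D4:**
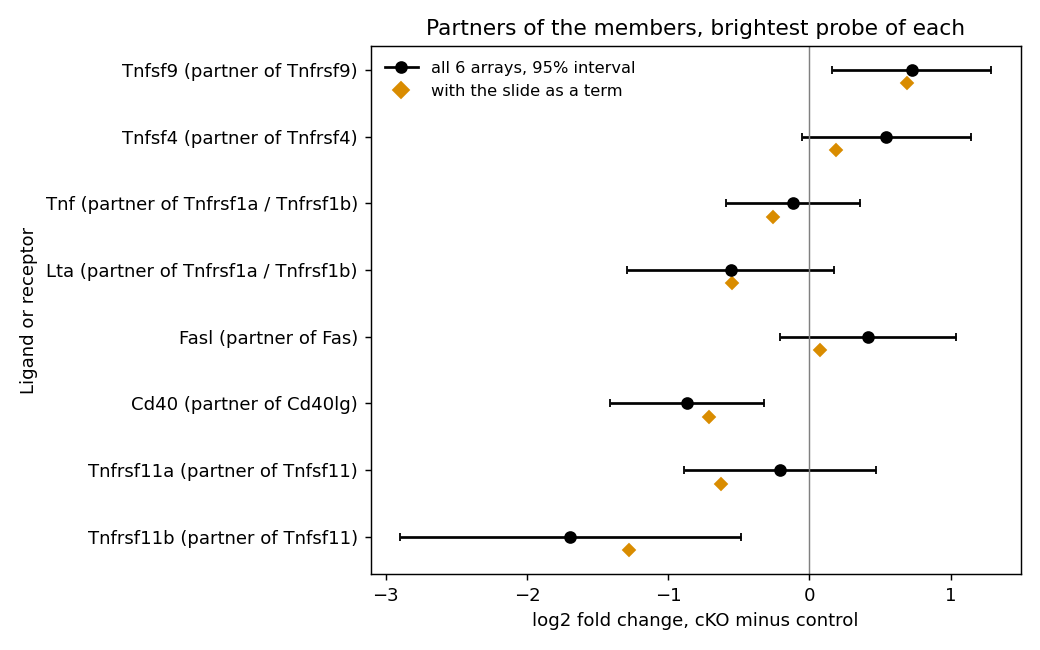
Difference between cKO and control in ligands and receptors that pair with the members (y axis), at the brightest probe of each, as a log2 fold change (x axis). Black points with bars are the limma estimate from all 6 arrays with its 95% interval, and orange diamonds the estimate with the slide as a term. Tnfsf9 lies above 0 at 0.72, and Cd40 and Tnfrsf11b lie below it at -0.87 and -1.69.

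Downstream of the receptors, all 25 adaptor and signalling genes were kept, of which 3 were higher and 3 lower in cKO at an unadjusted p under 0.05 (against 12.2% and 11.3% of all genes), with a median difference of -0.07. Traf1, an adaptor that binds 4-1BB and OX40 and is itself induced by NF-κB, read 4.97, 5.19 and 5.32 in cKO and 4.66, 4.61 and 4.35 in control. All cKO arrays exceeded all control arrays, with a difference of 0.62 (SE 0.14, unadjusted p = 0.00465 and adjusted p = 0.122 in limma) and of 0.50 with the slide as a term. The adaptors Traf5 (difference -0.42, adjusted p = 0.175 in limma) and Traf6 (-0.60, adjusted p = 0.199 in limma) lay the other way, with separate groups. Of the linear ubiquitin ligase that acts at TNF receptor 1, Rnf31, its catalytic subunit, differed by 0.35 (adjusted p = 0.199 in limma) and Rbck1 by -0.31 (adjusted p = 0.209 in limma). Cyld, a deubiquitinase of the same complex, was the sixth by p, is named here after its values were seen, and differed by 0.38 (adjusted p = 0.217 in limma). With the slide as a term the differences were -0.24 for Traf5, -0.36 for Traf6, 0.29 for Rnf31, -0.25 for Rbck1 and 0.34 for Cyld.

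Of 9 NF-κB subunits and inhibitors, 8 were kept, of which 2 were higher and 0 lower in cKO at an unadjusted p under 0.05 (against 12.2% and 11.3% of all genes), with a median difference of 0.15. Bcl3, a nuclear IκB protein, read 4.81, 4.66 and 5.01 in cKO and 4.56, 4.30 and 4.00 in control, a difference of 0.54 (SE 0.18, adjusted p = 0.172 in limma) and of 0.27 with the slide as a term. Nfkbib, the inhibitor IκBβ, read 3.27, 3.55 and 3.23 in cKO and 2.96, 2.95 and 2.94 in control. The groups were separate at both genes, and Nfkbib differed by 0.40 (SE 0.12, adjusted p = 0.157 in limma). In these 4 lists, 0 genes passed an adjusted p of 0.05 in limma, and the plain 2-sample test of the methods called 0 of all 22281 kept probes.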

How the data were processed

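RNA of 6 iTreg cultures (0.5 μg each) was labelled with Cy3 and hybridized to Agilent whole mouse genome arrays. The spot intensities deposited by the authors are linear processed signals of Agilent Feature Extraction (10.7.3.1 per the file headers, 9.1 per the processing notes), background-subtracted within an array and not normalized between arrays. A deposited table of log2 values, whose columns have medians of 6.15 and whose normalization is not given in the sources used here, served as an alternative. Each array holds 45018 spots, 43379 of them not controls, and 123 to 140 spots that the software marked as outliers were dropped from each. The number of arrays limits the precision.

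Spots of a probe were averaged, divided by the array's 75th percentile and put on the log2 scale. Probes well above background on at least 3 arrays were fitted together in limma 3.58.1 (lmFit, eBayes; R 4.3.3, statmod 1.5.0), with Benjamini-Hochberg adjustment. Figures were drawn in Python 3.11.15 with matplotlib 3.10.9. The fit was checked on simulated data with known differences, all larger than those of the members and without a slide effect. The check does not tell how well smaller differences or slide effects are handled. Summed marker levels add the linear signals, in units of the 75th percentile, of the brightest probe of each marker. The text names every probe of the members, up to 5 genes of each pathway list with an unadjusted p under 0.05, and the 2 genes most like each of the 3 members with the largest differences, with others said to be chosen after their values were seen, and marker genes beside the marker sums. A gene outside the members is given by its brightest probe. Members and lists were chosen with earlier results of these data known. All 15 member probes with a RefSeq transcript matched a current RefSeq gene of the same symbol.

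The alternatives, 19 in all, were normexp with an offset of 50 (followed by quantiles or by the 75th percentile), quantile normalization, the median as scaling point, the authors' table, no filter or a filter on all 6 arrays, the 2-sided t-test of the methods, a robust eBayes fit with a trend, blocks for the replicate number and for the slide, array weights, the mean over a gene's probes, and leaving out each array. The p-values rest on the spread between cultures of 3 mice a group, which among the controls also includes the slide. In limma, each variance is also drawn towards that of all kept probes.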

Additional observations from a re-analysis of the deposited data

How the results depend on the processing

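In all 19 alternatives, 0 member probes passed an adjusted p of 0.05, while over all kept probes the 29 that passed became 0 with the slide or replicate block, 115 under normexp with quantiles and 1821 with array weights. The number of member probes with an unadjusted p under 0.05, which was 2, became 0 with no filter on dim probes, under normexp with the 75th percentile, with the slide as a block and with the replicate block, 1 with the median as scaling point and under the t-test of the methods, and 6 with array weights (0.17 for cKO 3 to 4.79 for control 2). Leaving out 1 array gave 0 to 4, with 0 without control 2 or control 3, 1 without cKO 2 and 4 without cKO 3 or control 1. The share of all probes under that unadjusted p was counted in the main fit alone, so these counts have no background beside them. Their cause was not tested. At the brightest probe of each member, 185 differences kept their direction and 4 reversed: Tnfrsf1a to -0.11 under normexp with the 75th percentile and -0.023 without cKO 3 (leaving out each array gave up to 0.080), Cd40lg to -0.038 without control 3 (up to 0.52), and Tnfsf11 to -0.012 without cKO 2 (up to 0.26). Under normexp with the 75th percentile the median of all probes moved from -0.04 to 0.10, that of the members from 0.21 to 0.16, and the differences of Tnfrsf4, Tnfrsf18 and the brighter Fas probe to 0.17, 0.15 and 0.12. Directions at the dimmer probes also turned: Tnfrsf9 probe 3 to -0.15 with the slide as a block, Tnfrsf25 to 0.025 and Fas to 0.45 under normexp with the 75th percentile, and Fas to 0.016 under normexp with quantiles, 0.039 with array weights, 0.27 without cKO 1 and 0.032 without control 1. Tnfrsf11b ran from -1.71 to -0.44 over the alternatives that kept all arrays. Adjusted p over the alternatives ran from 0.0597 to 0.742 for Tnfrsf4, from 0.0982 to 0.866 for Tnfrsf9 and from 0.191 to 0.853 for Tnfrsf18. Of the pathway genes named, Cd40, Tnfsf9, Traf1 and Nfkbib passed an adjusted p of 0.05 with array weights alone. Deviations of same-numbered arrays from their group means correlated at -0.14, 0.01 and -0.19 over the kept probes. The replicate block left 0 of 16 probes with an unadjusted p under 0.05. Whether the replicate numbers pair the arrays cannot be told from these values, since each group has 3 arrays and the control arrays also differ in slide.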
